A study of Homo sapiens with 6 samples.

Results

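Synaptic vesicle release depends on a set of proteins that load, dock, prime, fuse and retrieve vesicles at the nerve terminal, and 46 human genes of this machinery were followed here in SH-SY5Y cells. They were chosen by name, as genes of the vesicle membrane, the calcium sensors, the SNARE fusion complex with its regulators, the active zone and endocytosis, out of 67060 genes in the authors' count table. Earlier results of these data were known when they were chosen. SH-SY5Y is a human neuroblastoma line with catecholaminergic features, and all libraries came from this line, which was grown until 80% confluent. Cells received 0.5 µl of an adenovirus for 24 h. The virus carried either GFP (Ad CMV GFP, 3 libraries, replicates 1, 3 and 4) or the mouse *Esrrg* coding sequence with a 3xFlag tag (Ad CMV 3xFlag-*Esrrg*, 3 libraries, replicates 2, 3 and 4), each behind the CMV promoter. *Esrrg* encodes estrogen-related receptor γ (ERRγ), an orphan nuclear receptor best known as an activator of mitochondrial genes. The comparison asks which release genes differ in level when ERRγ is added to a cell line that already makes *ESRRG*. No cells without virus are in the data, and no source says whether the libraries came from separate cultures, so the p-values measure only the spread between these libraries.

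In a terminal, vesicle proteins such as synaptophysin and SV2 sit in the vesicle membrane, and synapsins tether vesicles into a reserve pool. The vesicle SNARE VAMP2 zips together with the plasma membrane SNAREs syntaxin 1 and SNAP25, synaptotagmins couple this step to calcium, and complexins clamp and assist it. UNC13 and CADPS proteins prime vesicles, the scaffolds RIM, Bassoon, Piccolo and ERC place them at the active zone, NSF and the SNAP adaptors take spent SNARE complexes apart, and dynamin, amphiphysin and endophilin recover the membrane. Several of these families also serve dense core vesicles, which catecholaminergic cells use to store their transmitter.

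Of the 46 genes, 40 passed the filter on low counts and were tested, and 6 (*SV2B*, *SYT5*, *CADPS2*, *NSF*, *AMPH* and *SH3GL2*) were too low to test. With Ad CMV 3xFlag-*Esrrg*, 10 release genes rose and 8 fell. *SYP*, *SYN2*, *SYNGR3*, *SV2A*, *CADPS* and *SCAMP5* rose by at least 2-fold, and *RPH3A*, *SYT4*, *SV2C*, *PCLO*, *UNC13A* and *SNAP25* fell by at least 2-fold. *SYNGR1*, *SYT7*, *VAMP2* and *NAPA* rose by less, and *VAMP1* and *BSN* fell by less. Genes were called when the quasi-likelihood test of edgeR, run over all tested genes, gave a Benjamini-Hochberg adjusted p below 0.05 with a fold change of at least 1.5. The 18 called members compare with 34.1% of all tested genes and 38.3% of tested protein-coding genes called in either direction. Without the fold cutoff 26 members passed, and so did 47.8% of all tested genes. The 10 higher genes are 25% of the tested members, where 17.3% of all tested genes and 25.9% of tested protein-coding genes were called higher. The 8 lower genes are 20%, where 16.8% of all tested genes and 12.4% of tested protein-coding genes were called lower. The median log2 fold change of the tested members was 0.065, beside -0.10 for all tested genes and 0.12 for protein-coding genes. For 26 of the 40 tested members the normalized values of the groups were fully apart. They were apart for 58.1% of all tested genes and for 70.3% of tested protein-coding genes. When counts were scaled by library size alone, 6 members were higher and 11 lower (8.98% and 30.9% of all tested genes), the median of the members was -0.27, and that of all tested genes was -0.42.

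**Figure D1:**
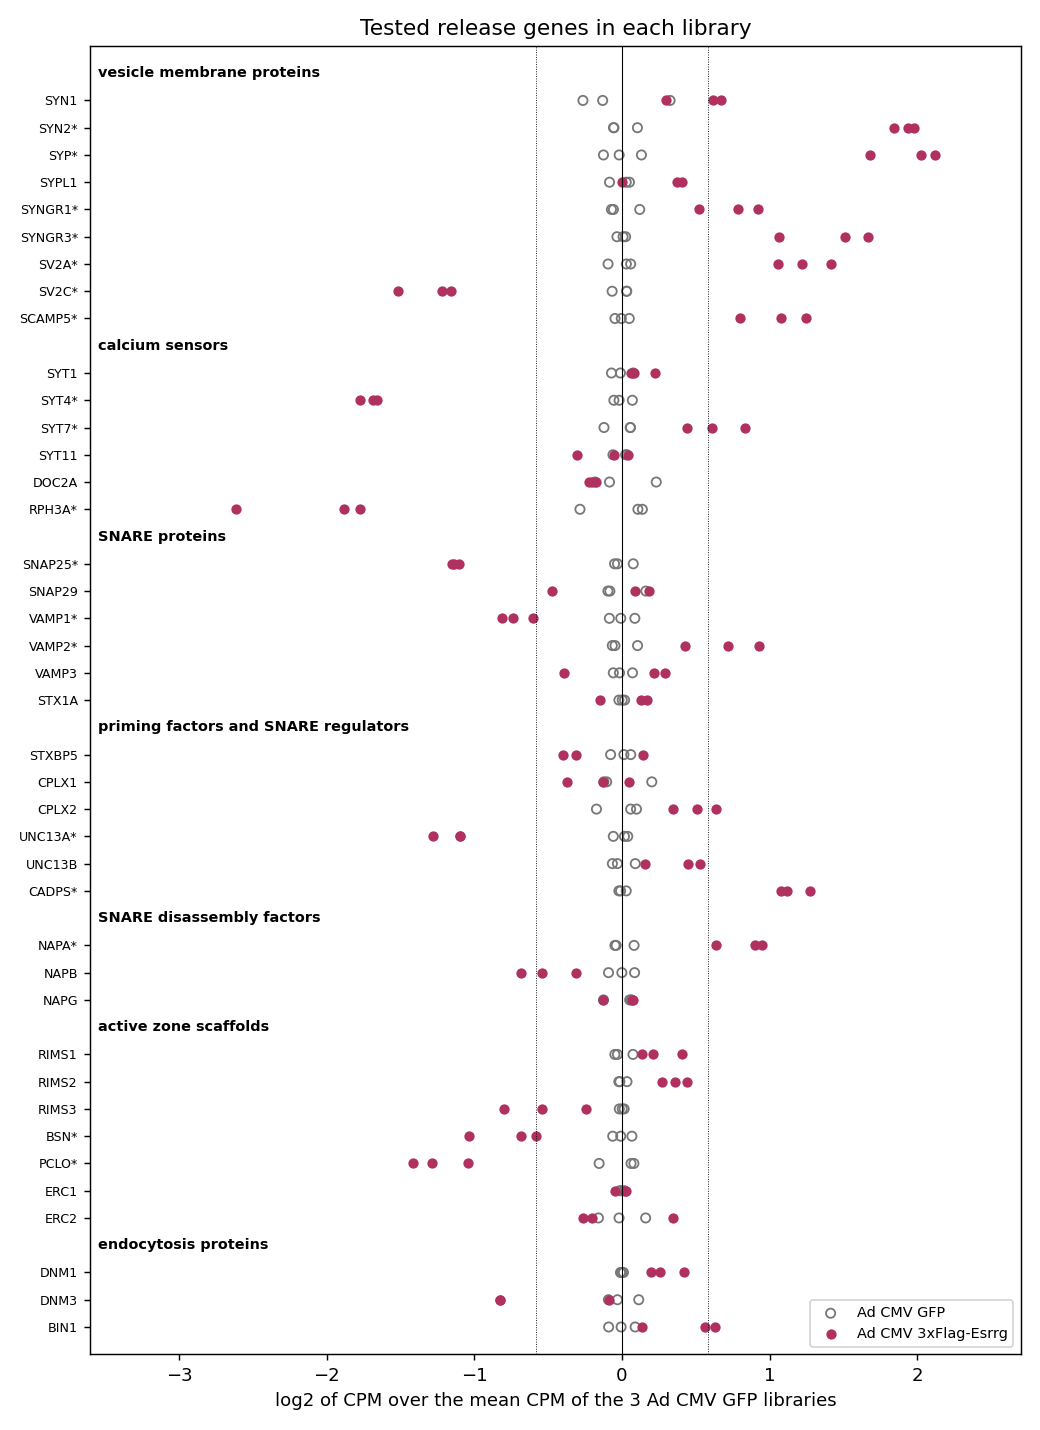
Normalized level of the 40 tested release genes in each library, as the log2 of CPM (counts scaled to a common library total) over the mean of the 3 Ad CMV GFP libraries (x axis), with genes grouped by role (y axis). Open circles are Ad CMV GFP libraries, filled circles are Ad CMV 3xFlag-*Esrrg* libraries, dotted lines mark a 1.5-fold difference and asterisks mark the 18 called genes, whose groups do not overlap.

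**Figure D2:**
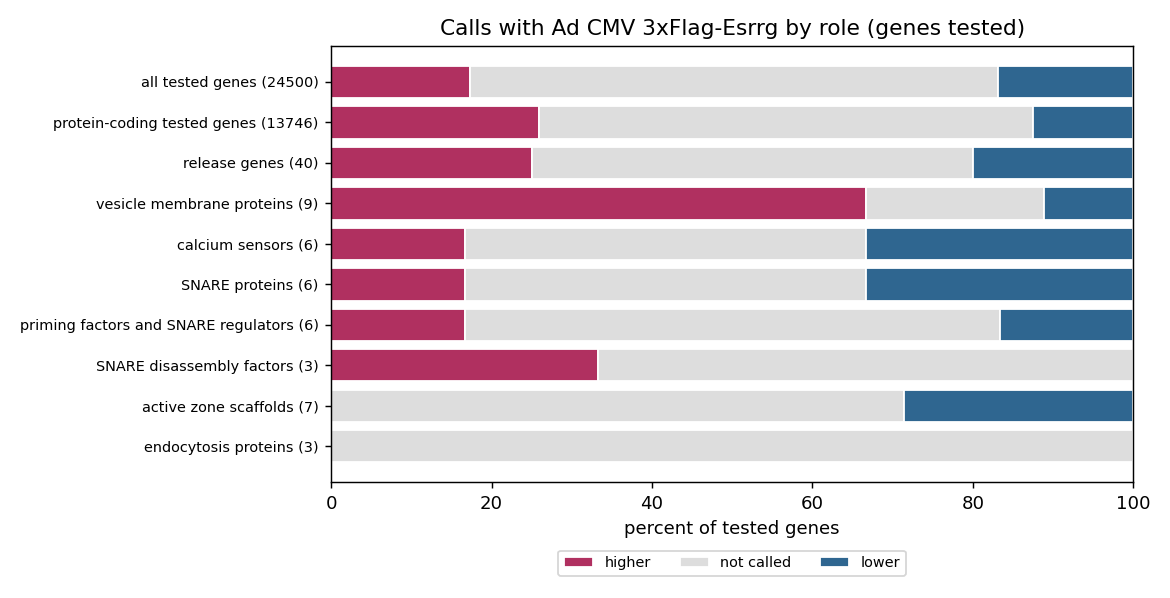
Percent of tested genes called higher, not called or called lower with Ad CMV 3xFlag-*Esrrg* (x axis) for all tested genes, protein-coding genes, the release genes and each role, with the number tested in brackets. Higher calls make up 66.7% of the 9 tested vesicle membrane genes and none of the 7 active zone genes, beside 17.3% of all tested genes. Each role holds few genes, and no role was tested as a set.

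Total counts on genes ran from 24969759 to 40859666 per library. *ESRRG*, the targeted gene, was higher in each Ad CMV 3xFlag-*Esrrg* library, at 706 ± 119 CPM against 87.0 ± 3.40 CPM (SD, n = 3 each), with CPM scaled by TMM (trimmed mean of M values) factors. Reads of the mouse transgene and of the human gene cannot be told apart in these counts. Reads assigned to no gene made up 51.3% to 52.2% of reads with Ad CMV GFP, but 46.6%, 31.6% and 29.5% in Ad CMV 3xFlag-*Esrrg* replicates 2, 3 and 4. This share moved with the groups, and its part in the results was not tested except by a fit with it as a covariate, in which 6 members were higher and 9 lower (7.24% and 5.4% of all tested genes). *SYNGR1*, *SYT7*, *VAMP2*, *NAPA*, *VAMP1* and *BSN* were not called in that fit. Among noradrenergic neuroblastoma markers, *PHOX2A*, *HAND2*, *GATA3* and *DBH* were measured in every library while *TH* had 0 counts in all 6 libraries, which allows up to 0.0880 to 0.112 CPM per library (3 counts, counting error only). *PHOX2A* rose (log2 0.81) and *DBH* fell (log2 -2.64). All 5 mesenchymal neuroblastoma markers were also measured in every library. Of these *YAP1* fell (log2 -0.67, from 95.5 ± 7.80 to 60.04 ± 2.40 CPM, SD, n = 3) and 4 were not called, with log2 fold changes of 0.46 for *FN1*, -0.30 for *SNAI2*, 0.049 for *PRRX1* and 0.020 for *NOTCH2*. The summed level of 5 glial markers was 10.7 to 11.2 CPM with Ad CMV GFP and 7.63 to 8.64 CPM with Ad CMV 3xFlag-*Esrrg*, with *AQP4* at 0 to 2 counts. The 4 immune and endothelial markers together had 44 to 62 counts and 71 to 101 counts per library. The part of these markers in the results was not tested. In such bulk samples, fewer cells of a type and less RNA per cell cannot be told apart.

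The start regions of the members, called or not, were searched for the ERR response element, since ERR receptors bind a single copy of the nuclear receptor core sequence with a short extension. RefSeq windows on GRCh38.p14, from 250 bases before to 50 bases after a transcription start, were at hand for 39 of the 46 members (53 windows). The only window of *SV2A* (minus strand) has its start at chr1:149906991, inside the gene. The region at the 5′ end annotated for *SV2A* (149917844) was not searched. The 9-letter element TCAAGGTCA was found in 0 of the 53 windows and in 0.353% of all 35116 windows, searching both strands. With any base at the second position (TNAAGGTCA) it was again in 0 of 53 and in 0.951% of all windows. The 7-letter core AAGGTCA was in 0 of 53 and in 3.92% of all windows. These counts say only that the letters are not in these windows. The E-box CACGTG was in 3 of the 53 windows (*UNC13A*, *NAPA* and *SNAP29*) and in 7.26% of all windows, and the cyclic AMP response element TGACGTCA was in 2 (*SYN1* and *SH3GL2*) and in 1.85% of all windows. No window was at hand for *SYNGR3*, *SYT7*, *DOC2A*, *SNAP25*, *CPLX1*, *CADPS2* and *RIMS2*. The 100 bases before the start are shown for the 2 genes that rose most and the 2 that fell most among called members with a single RefSeq window, 5′ to 3′ on the gene's strand, with the start base in the capital at the end.
SYP (chrX:49200193-49200293, minus strand, 82.2% G or C): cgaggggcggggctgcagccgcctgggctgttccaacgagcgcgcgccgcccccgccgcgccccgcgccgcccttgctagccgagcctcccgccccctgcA
SYN2 (chr3:12004288-12004388, plus strand, 83.2% G or C): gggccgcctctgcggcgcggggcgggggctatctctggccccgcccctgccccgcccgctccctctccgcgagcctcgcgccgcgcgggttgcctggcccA
SYT4 (chr18:43277490-43277590, minus strand, 60.4% G or C): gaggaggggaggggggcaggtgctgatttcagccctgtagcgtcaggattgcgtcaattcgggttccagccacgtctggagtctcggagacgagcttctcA
SV2C (chr5:76083283-76083383, plus strand, 70.3% G or C): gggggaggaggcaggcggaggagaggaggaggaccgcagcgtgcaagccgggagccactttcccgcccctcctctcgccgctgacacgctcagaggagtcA
These stretches hold none of the letters searched.

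Vesicle membrane genes were mostly higher with Ad CMV 3xFlag-*Esrrg*. Of 9 tested, 6 rose, 1 fell and 2 were not called, with a median log2 fold change of 1.05. Higher calls made up 17.3% of all tested genes and 25.9% of tested protein-coding genes. The role holds only 9 tested genes and was chosen with earlier results of these data known, so its share was not tested. *SYP* encodes synaptophysin, the most abundant membrane protein of small vesicles, and had 106, 139 and 134 counts with GFP (replicates 1, 3 and 4) and 351, 562 and 609 counts with *Esrrg* (replicates 2, 3 and 4), an order kept for all genes below. The lowest *Esrrg* library lay above every GFP library, also on the CPM scale, where the means were 15.9 ± 2.47 and 4.10 ± 0.370 (SD, n = 3). This was a 3.88-fold rise (log2 1.96, standard error 0.15, adjusted p = 1.2e-05, edgeR). *SYN2*, which encodes synapsin II, had 346, 340 and 363 counts with GFP and 1093, 1471 and 1535 counts with *Esrrg*. Its groups were far apart and narrow, at 11.4 ± 0.747 and 43.2 ± 2.13 CPM (SD, n = 3), a 3.79-fold rise (log2 1.92, standard error 0.10, adjusted p = 1.2e-06, edgeR). *SYNGR3*, for the vesicle protein synaptogyrin 3, had 206, 217 and 239 counts against 401, 690 and 776 counts. Replicate 2 was the lowest of the *Esrrg* libraries and still lay above all GFP libraries, for a rise of 1.44 on the log2 scale (standard error 0.15, adjusted p = 7.4e-05, edgeR).

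*SV2A*, whose product is a vesicle glycoprotein and the binding site of the antiseizure drug levetiracetam, had 2310, 2762 and 3016 counts against 4861, 6841 and 7950 counts (2.36-fold, log2 1.24, adjusted p = 3.3e-05, edgeR). *SCAMP5*, a secretory carrier membrane protein enriched in brain, rose by 2.08-fold, and *SYNGR1*, for synaptogyrin 1, rose by 1.69-fold. *SYNGR1* was not called after correction for GC content and gene length (log2 0.34). The only vesicle membrane gene that fell was *SV2C*, the SV2 form prominent in dopaminergic neurons of the basal ganglia. It had 633, 694 and 694 counts with GFP and 205, 317 and 335 counts with *Esrrg*. All *Esrrg* libraries were below all GFP libraries (8.97 ± 1.15 against 21.95 ± 0.854 CPM, SD, n = 3), a change of -1.29 on the log2 scale (standard error 0.12, adjusted p = 3.5e-05, edgeR). *SYPL1*, the synaptophysin relative found in non-neuronal cells, had a log2 fold change of 0.27 (adjusted p = 0.082, edgeR), and its groups overlapped. *SYN1* was scarce, with 18, 18 and 29 counts against 23, 36 and 38 counts, and did not pass the test (log2 0.54, adjusted p = 0.13, edgeR). Exons of other genes on the same strand cover 24.9% of its exon bases. *SV2B* had 0 counts in 5 libraries and 1 count in *Esrrg* replicate 3.

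Among the calcium sensors, 2 of 6 tested genes fell, 1 rose and 3 were not called. With 6 genes, these counts cannot be set apart from the shares of all tested genes (16.8% lower and 17.3% higher). *SYT4* encodes synaptotagmin 4, a form that binds calcium poorly through its first C2 domain and sits on dense core vesicles. It had 7711, 7951 and 8302 counts with GFP and 2208, 2565 and 2762 counts with *Esrrg*. The groups were tight and widely separated, at 260 ± 11.7 and 80.0 ± 3.34 CPM (SD, n = 3), a 3.26-fold fall (log2 -1.70, standard error 0.095, adjusted p = 1.8e-06, edgeR). *RPH3A*, for the RAB3 and RAB27 effector rabphilin 3A, had 170, 250 and 262 counts against 32, 67 and 73 counts. It fell the most of all members, by 4.08-fold (log2 -2.03, standard error 0.22, adjusted p = 8.4e-05, edgeR), and replicate 2 was lowest. *SYT7*, the slow, high-affinity sensor of asynchronous release, had 191, 237 and 254 counts against 268, 379 and 447 counts. Its rise was 1.56-fold (log2 0.64, standard error 0.14, adjusted p = 0.0030, edgeR), close to the cutoff. It was not called without GFP replicate 1 (log2 0.58), without *Esrrg* replicate 4 (0.54), or after the GC and length correction (0.23, adjusted p = 0.076). *SYT1*, the fast sensor of synchronous release, had 2447, 2527 and 2593 counts against 2574, 2929 and 2919 counts, and no difference was detected (log2 0.12, standard error 0.093, adjusted p = 0.29, edgeR). *SYT11*, an abundant form that does not bind calcium, and *DOC2A*, a sensor linked to spontaneous release, had log2 fold changes of -0.098 and -0.20 with overlapping groups. *DOC2A* was called lower after the GC and length correction (log2 -0.59, adjusted p = 0.027, edgeR). *SYT5* had 8 to 19 counts with GFP and 9 to 14 counts with *Esrrg*, too few to test.

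Of 6 tested SNARE genes, 2 fell, 1 rose and 3 were not called, the same counts as for the calcium sensors and as few. *SNAP25*, the plasma membrane SNARE of neurons, had 2181, 2192 and 2378 counts with GFP and 892, 1113 and 1165 counts with *Esrrg*. The *Esrrg* libraries agreed closely at 33.5 ± 0.583 CPM, all below the GFP libraries at 73.4 ± 3.50 CPM (SD, n = 3). This is a 2.19-fold fall (log2 -1.13, standard error 0.088, adjusted p = 1.4e-05, edgeR). *VAMP1* had 186, 218 and 207 counts against 117, 134 and 129 counts and fell by 1.64-fold (log2 -0.71, standard error 0.14, adjusted p = 0.0021, edgeR). Its relative *VAMP2*, the main vesicle SNARE of the brain, had 629, 777 and 748 counts against 839, 1294 and 1511 counts and rose by 1.63-fold (log2 0.71, standard error 0.13, adjusted p = 0.0013, edgeR). Neither pair of groups overlapped. *VAMP2* was not called after the GC and length correction (log2 0.35), and *VAMP1* was (-0.93). With the share of reads on no gene as a covariate neither was called (log2 0.28, adjusted p = 0.11 for *VAMP2*, and -0.54, adjusted p = 0.084 for *VAMP1*, edgeR), and neither passed a test against a 1.5-fold threshold. Exons of other genes cover 11.9% of the *VAMP2* exon bases on the same strand and 10.4% of those of *VAMP1* on the opposite strand. *VAMP3* (cellubrevin, the form used outside neurons), *SNAP29* and *STX1A* (syntaxin 1A) had log2 fold changes of 0.071, -0.038 and 0.060 and did not pass the test. In *VAMP3* and *SNAP29*, *Esrrg* replicate 2 was lower than every GFP library and replicates 3 and 4 were higher than the GFP mean.

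Among the priming factors and SNARE regulators, *CADPS* rose and *UNC13A* fell, and 4 others were not called. *CADPS* encodes CAPS1, which primes dense core vesicles for fusion, and had 962, 1047 and 1160 counts against 2218, 2513 and 2467 counts. The *Esrrg* libraries were all above the GFP libraries, at 76.7 ± 5.56 against 34.3 ± 0.626 CPM (SD, n = 3). The rise was 2.23-fold (log2 1.16, standard error 0.093, adjusted p = 1.6e-05, edgeR). *UNC13A*, for MUNC13-1, the priming factor that most brain synapses need, had 210, 234 and 234 counts against 81, 116 and 117 counts. It fell by 2.22-fold without overlap (log2 -1.15, standard error 0.14, adjusted p = 1.4e-04, edgeR). Its relative *UNC13B* had a log2 fold change of 0.39, with an adjusted p of 0.015 but below 1.5-fold. *CPLX2* was similar (0.51, adjusted p = 0.027), and *STXBP5*, for tomosyn, which sequesters SNAREs, had -0.17 (adjusted p = 0.32, edgeR for all 3). *CPLX1*, for complexin 1, had 80, 71 and 75 counts with GFP and 51, 76 and 87 counts with *Esrrg*. The groups overlapped and no difference was detected (2.47 ± 0.322 against 2.24 ± 0.323 CPM, SD, n = 3; log2 -0.13, standard error 0.20, adjusted p = 0.61, edgeR). Its exons are 66.9% G or C, the highest share of the 40 tested members, and after the GC and length correction it was called lower (log2 -0.60, adjusted p = 0.016). *CADPS2* had 3, 6 and 5 counts against 0, 2 and 3 counts, too few to test.

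SNARE disassembly genes gave 1 rise in 3 tested. *NAPA*, for α-SNAP, had 383, 457 and 447 counts against 581, 878 and 919 counts, without overlap between the groups. It rose by 1.79-fold (log2 0.84, standard error 0.11, adjusted p = 2.4e-04, edgeR) and was not called after the GC and length correction (0.43). Exons of other genes cover 13.2% of its exon bases on the same strand and 17.4% on the opposite strand. *NAPB*, for the neuronal β-SNAP, went the other way but under 1.5-fold (log2 -0.51, adjusted p = 0.0056), and *NAPG*, for γ-SNAP, had a log2 fold change of 0.0090 (adjusted p = 0.95, edgeR for both). *NSF* encodes the ATPase that every eukaryotic cell uses in membrane fusion, yet had 0, 0 and 1 counts with GFP and 1, 0 and 0 counts with *Esrrg*. The gene lies on chromosome 17 from 46590669 to 46757679 (GRCh38, GENCODE release 44). All of its exon sequence, read as words of 31 bases, also occurs on alternate contigs of GRCh38 (100% of 8622 words), and 48.3% of the words occur more than once on the main chromosomes. No other member had more than 8.01% of its words on alternate contigs. The *NSF* counts are not read here as its level, and whether reads were lost as aligned to several places was not tested.

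No active zone gene rose, and 2 of 7 fell. Over all tested genes 17.3% were called higher and 16.8% lower, and 7 genes are too few to set this role apart. *PCLO*, for the giant scaffold Piccolo, had 1322, 1470 and 1336 counts against 583, 567 and 627 counts. All *Esrrg* libraries were below all GFP libraries (19.02 ± 2.54 against 44.9 ± 3.97 CPM, SD, n = 3), and the fall was 2.36-fold (log2 -1.24, standard error 0.12, adjusted p = 4.5e-05, edgeR). *BSN*, for its partner Bassoon, had 282, 298 and 349 counts against 180, 165 and 213 counts. It fell by 1.69-fold without overlap (log2 -0.76, standard error 0.14, adjusted p = 0.0017, edgeR), and was not called with the covariate (-0.53, adjusted p = 0.053). *RIMS3*, for a short RIM form, had a log2 fold change of -0.51 (adjusted p = 0.0087), under 1.5-fold. The larger scaffolds *RIMS1* and *RIMS2* had 0.26 (adjusted p = 0.15) and 0.36 (adjusted p = 0.013, edgeR for all 3). After the GC and length correction *RIMS3* was called lower (-0.82) and *RIMS2* higher (0.68). *ERC1* and *ERC2*, which link RIM to the cell cortex, had log2 fold changes of 0.0030 and -0.018. *ERC1* was one of the steadiest members, at 149 ± 1.54 and 149 ± 4.13 CPM (SD, n = 3).

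None of the 3 tested endocytosis members passed the fold cutoff. *DNM1*, for the neuronal dynamin that cuts vesicles from the membrane, and *BIN1*, for amphiphysin 2, had log2 fold changes of 0.30 and 0.46 with non-overlapping groups (adjusted p = 0.024 and 0.014, edgeR). *DNM3* had -0.54 (adjusted p = 0.033, edgeR), with *Esrrg* replicate 2 inside the range of the GFP libraries. *AMPH*, for amphiphysin, had 0, 2 and 5 counts with GFP and 1, 1 and 0 counts with *Esrrg*. *SH3GL2*, for endophilin A1, had 0, 1 and 1 counts with GFP and 0 counts in each *Esrrg* library. The same limit for a count of 0 as for *TH* holds here.

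Within several families, members differed in direction. Levels were compared per kb of exon, from the union of annotated exons, which may be longer than the transcripts in use. *SV2A* was above *SV2C* by 9.01, 9.83 and 10.7 times in the GFP libraries and by 58.5, 53.3 and 58.6 times in the *Esrrg* libraries. The level of *VAMP2* over *VAMP1* was 3.26, 3.43 and 3.48 with GFP and 6.91, 9.30 and 11.3 with *Esrrg*. *SYT4* was above *SYT7* by 70.8, 58.8 and 57.3 times with GFP and by 14.4, 11.9 and 10.8 times with *Esrrg*. In each family the libraries of the groups lay apart. These pairs were picked for their opposite calls, so the ratios describe them and were not tested. The ratios are not corrected for GC content and length, and in each pair the gene that rose had the higher GC content. After that correction *VAMP2* and *SYT7* were not called, while the other genes of these pairs were. With the share of reads on no gene as a covariate, *VAMP2*, *VAMP1* and *SYT7* were not called. In Ad CMV GFP libraries *SYT4* had the highest level per kb of all members (60.5 ± 2.72 CPM per kb, SD, n = 3), followed by *SYT11* (44.9 ± 1.61), *SYPL1* (41.9 ± 2.08) and *VAMP3* (37.9 ± 1.76). Next was *SV2A* at 18.3 ± 1.02. In the Ad CMV 3xFlag-*Esrrg* libraries *SYPL1* (50.6 ± 7.52), *SV2A* (43.1 ± 5.40), *SYT11* (41.9 ± 5.12) and *VAMP3* (39.8 ± 9.50) lay within each other's spread, and *SYT4* was below them at 18.6 ± 0.775.

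**Figure D3:**
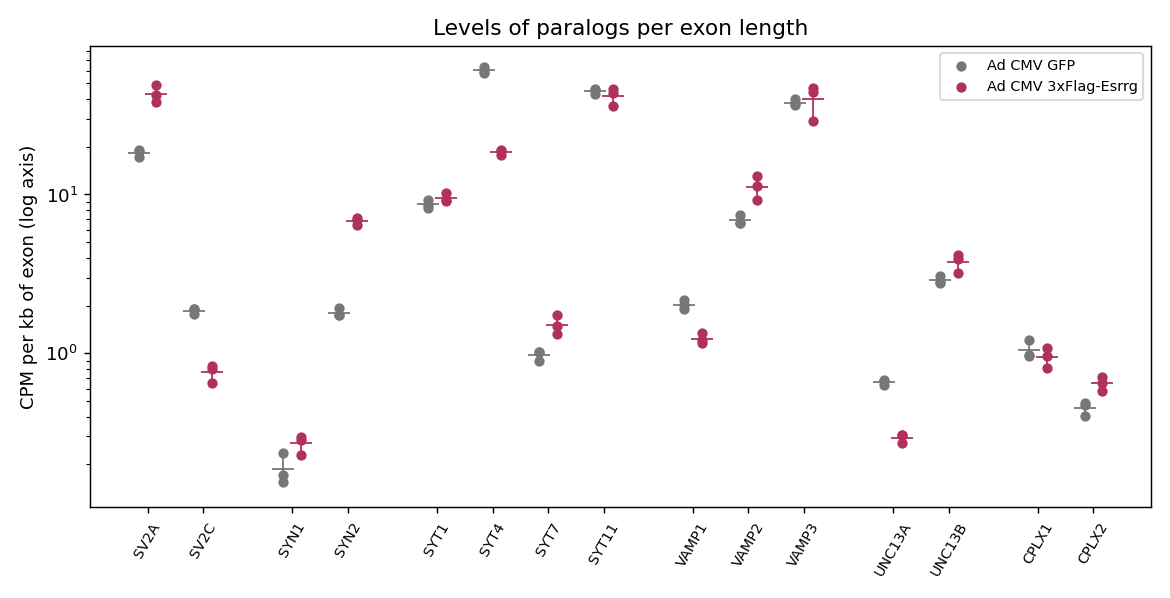
Level of related release genes per exon length, in CPM per kb on a log axis, for each Ad CMV GFP (grey) and Ad CMV 3xFlag-*Esrrg* (red) library, with the mean and SD (n = 3) as bars. *SV2A*, *SYN2* and *VAMP2* lie higher and *SV2C*, *SYT4*, *VAMP1* and *UNC13A* lower in the *Esrrg* libraries, while *SYT1*, *SYT11*, *VAMP3* and *CPLX1* overlap.

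Higher members had the highest median GC content, while the medians of the lower members and of those not called were close. The exons of the 10 higher members had a median GC content of 57.2% (range 42.9% to 63.9%), those of the 8 lower members 47.1% (37.5% to 60.8%) and those of the 22 members not called 45.8%. Across the 40 tested members the correlation between GC content and log2 fold change was 0.35 (Pearson) and 0.37 (Spearman). It was 0.33 and 0.37 across 24232 tested genes with an annotation. Genes share libraries and are not independent replicates, so no p is given. The median exon length was 6010 bases for the higher members, 11499 for the lower members and 6941 for those not called. The Pearson correlation of length with log2 fold change was -0.26 across the members and 0.13, of opposite sign, across all tested genes. After correction for GC content and length by smooth curves in each library, 7 members were higher and 11 lower, where 15.3% and 13.1% of all tested genes were called. *SYN2*, *SYP*, *SYNGR3*, *SV2A*, *CADPS* and *SCAMP5* were still higher, and all 8 lower members were still lower.

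**Figure D4:**
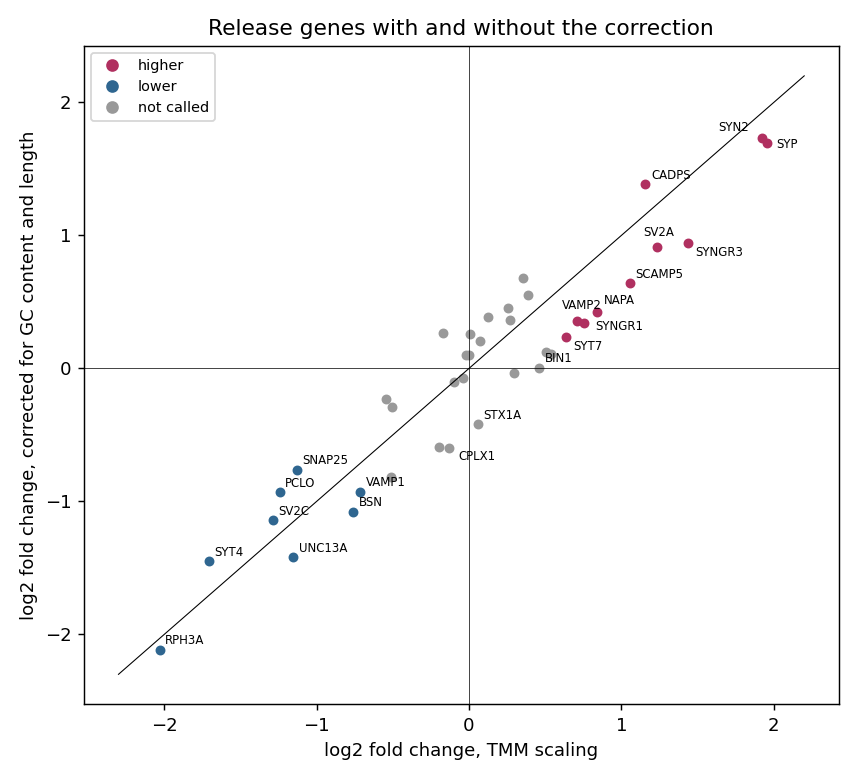
Log2 fold change of the 40 tested release genes with TMM scaling (x axis) and after correction for GC content and gene length (y axis), coloured by the call without the correction. The line marks equal values, and *SYNGR1*, *SYT7*, *VAMP2* and *NAPA* drop below the 1.5-fold cutoff with the correction while *CPLX1* moves from -0.13 to -0.60.

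Other genes of the vesicle cycle were taken from a list of 79, most of them relatives of the members. Of these, 63 were tested, 22 rose and 14 fell, with a median log2 fold change of 0.030. Higher calls made up 34.9% of the tested genes and lower calls 22.2%, beside 25.9% and 12.4% of protein-coding genes. Endocytosis genes of this list gave 13 rises and 3 falls among 24 tested, including the clathrin light chain *CLTB* (log2 1.58, adjusted p = 7.8e-05, edgeR). The ubiquitous dynamin *DNM2* rose as well (log2 0.70, adjusted p = 6.1e-04, edgeR). The largest other rises were those of *SYNGR2*, a synaptogyrin of non-neuronal cells (log2 1.70, adjusted p = 3.1e-05), and *SYT17* (log2 1.52, adjusted p = 2.0e-04, edgeR for both). *SYT9*, a calcium sensor of dense core vesicle and fast release, had the largest fall of the list once genes averaging under 50 counts were set aside, from 23.9 ± 1.05 to 4.36 ± 0.249 CPM (SD, n = 3; log2 -2.45, adjusted p = 5.6e-07, edgeR). *STON1* and *SYT16* followed with -1.06 and -1.05. The active zone genes of this list gave 0 rises and 3 falls in 10 tested. *SCAMP3* and *VAMP7*, named here after their values were seen, had 0 counts in all libraries. On alternate contigs lay 100% of the words of *SCAMP3*, and 100% of those of *VAMP7* were repeated on the main chromosomes. Of the 4 listed genes with at least 80% of words on alternate contigs, others were counted. *AP2A2* (97.4%) had 88 to 285 counts and rose (log2 1.09), *APBA1* (85.8%) had 82 to 126 counts, and *DOC2B* (99.4%) had 0 to 9 counts. Whether shared sequence lowered any of these counts was not tested.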

How the data were processed

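RNA of 6 SH-SY5Y libraries was sequenced after removal of ribosomal RNA, with a directional library kit. The deposited table holds raw counts per Ensembl gene that the authors made with HTSeq 0.11.3. The submitters' processing notes also name Trim Galore 0.6.7, STAR 2.7.9a and GRCh38. The annotation release and the strand setting of the counting are not given in the sources used here. Summary entries (reads on no gene 29.5% to 52.2%, ambiguous 4.55% to 9.84%, several places 7.16% to 13.0% of reads) stayed out of the library sizes. Identifiers were matched to GENCODE release 44 (60419 of 67060), and the 6641 others held 0.153% of the counts. Genes passing filterByExpr (24500) were scaled by TMM and compared with the quasi-likelihood test of edgeR 4.0.16 in R 4.3.3. Each standard error was obtained by dividing the size of the log2 fold change by √F. Precision per gene is limited by its count. Groups and replicate numbers came from the sample titles. The members, roles and other lists were chosen with earlier results of these data known, so no list was tested as a set. The text accounts for all 46 members, gives counts per library for called members with a mean of at least 50 counts (up to 4 per role), for *CPLX1* and for members too low to test, and names the 3 largest called changes each way of the other list and *DNM2*. Some genes of these lists are not reported here. Counts of other members were added after their values were seen. Alternatives were DESeq2 1.42.0, other scalings, filters and cutoffs, each library left out, the replicate number as a block, smooth curves for GC content and length (mgcv 1.9.3, 98.9% of genes), and the share of reads on no gene as a covariate. Words of 31 bases were looked up in 261 alternate contigs. The fit was tested on simulated data.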

Additional observations from a re-analysis of the deposited data

Results flagged for a closer look

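Reads that the counting called ambiguous, which overlap more than 1 gene and enter no comparison above, made up 5.69% of the total in *Esrrg* replicate 2, 9.84% in replicate 3 and 9.79% in replicate 4. The highest share in an Ad CMV GFP library was 4.87%. Among called members, *NAPA*, *VAMP2* and *VAMP1* have over 10% of their exon bases under exons of other genes. The part of ambiguous reads in their values was not tested.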

How the results depend on the processing

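Of the 18 called members, 12 (*SYN2*, *SYP*, *SYNGR3*, *SV2A*, *SCAMP5*, *CADPS*, *SV2C*, *SYT4*, *RPH3A*, *SNAP25*, *UNC13A* and *PCLO*) were called in the same direction under all 19 alternatives, and none of the 18 was called in the other direction under any. The alternatives with no fold cutoff and with a 2-fold cutoff reuse the main fit. Only members that changed by at least 2-fold, which these 12 are, could stay called under the latter. Against 10 members called higher, 6 were called when scaled by library size only, 6 under a 2-fold cutoff and 6 when the reads on no gene entered as a covariate. Leaving out single libraries gave 9 to 14 higher and 8 to 9 lower members, the 14 without *Esrrg* replicate 2. Without that library the median log2 fold change of all tested genes moved as well, from -0.10 to -0.056. Other vesicle genes called higher (22) numbered 12 when scaled by library size only, 9 under the 2-fold cutoff, 11 with a test against a 1.5-fold threshold and 7 with the covariate, and those called lower (14) numbered 5, 4 and 6 under the last 3 of these. With 1 library left out these counts ran from 18 to 25 and from 12 to 14. For the 2-fold cutoff, the 1.5-fold test and the fits missing a library, no share of all tested genes is given. Those counts therefore describe only the listed genes. The median of the members (0.065) was 0.15 with DESeq2 and with RLE size factors (both 0.15), -0.27 with library size only, 0.036 with at least 10 counts in every library, -0.077 with protein-coding genes only, 0.11 after the GC and length correction, and 0.088 under the covariate. Leaving out single libraries moved it between 0.052 and 0.25, the latter without *Esrrg* replicate 2.

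Replicate numbers 3 and 4 occur in both groups. The deviations of these libraries from their group means correlated at 0.075 and -0.00010. For libraries with different numbers the values ran from -0.13 to 0.14. With 3 libraries per group, these values cannot tell whether libraries with the same number share more than the number. Replicate 1 is only in the GFP group and replicate 2 only in the *Esrrg* group, so a fit with this block draws its group difference from replicates 3 and 4. With the replicate block, 11 members were higher and 10 lower (19.4% and 23.2% of all tested genes), with a median of 0.13, and with the block and the GC and length correction together the median was 0.10.

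Some members not called in the main fit were called under alternatives with the same sign. Of 19 alternatives, *RIMS3* was called in 7, *CPLX2* in 5 (DESeq2 among them), *DNM3* in 5 and *NAPB* in 4. *UNC13B* and *RIMS2* were called in 3 each, *BIN1* in 2, and *SYN1*, *DOC2A*, *SNAP29*, *CPLX1* and *DNM1* in 1 each. *SNAP29* was called lower with the covariate (log2 -0.68, adjusted p = 5.6e-04, edgeR). Signs turned only for members that were not called in the main fit. With DESeq2 these were *SNAP29* (0.045) and *ERC2* (0.055), and with RLE size factors *SNAP29* (0.046) and *ERC2* (0.055). With library size only they were *NAPG* (-0.31), *STX1A* (-0.27), *ERC1* (-0.32), *SYT1* (-0.19), *SYPL1* (-0.061), *VAMP3* (-0.27), *DNM1* (-0.028) and *RIMS1* (-0.066). With at least 10 counts they were *NAPG* (-0.019) and *ERC1* (-0.026), and with protein-coding genes only *STX1A* (-0.079), *SYT1* (-0.0090), *ERC1* (-0.13), *NAPG* (-0.12) and *VAMP3* (-0.074). With the GC and length correction they were *STXBP5* (0.26), *STX1A* (-0.42), *DNM1* (-0.036) and *ERC2* (0.10). With the replicate block they were *SNAP29* (0.10) and *CPLX1* (0.077), and with the block and the correction *STX1A* (-0.41), *STXBP5* (0.21), *DNM1* (-0.074) and *SNAP29* (0.055). With the covariate they were *ERC1* (-0.067), *ERC2* (0.53), *STXBP5* (0.30), *BIN1* (-0.016), *DNM3* (0.15), *SYPL1* (-0.11), *STX1A* (-0.24) and *VAMP3* (-0.60, called lower). Across the fits missing a library, *CPLX1* ran from -0.22 to 0.077, *SNAP29* from -0.15 to 0.24, *SYT11* from -0.16 to 0.10, *NAPG* from -0.048 to 0.082, *ERC1* from -0.0041 to 0.13, *ERC2* from -0.12 to 0.099 and *VAMP3* from -0.046 to 0.36. The cause of these changes was not tested.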
